A study of Mus musculus with 20 samples.

Results

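The PIM kinases are 3 serine/threonine kinases, encoded by Pim1, Pim2 and Pim3, and their transcripts were followed here in mouse pre-B cells. Of the 44200 probe sets in the array table, 6 were paired with exactly 1 of these symbols: 2 with Pim1, 1 with Pim2 and 3 with Pim3. That pairing used gene symbols and no measured value. The 3 genes themselves were chosen with earlier results of these data known. The symbols are 3 of the 17944 genes named in the table. One Pim3 probe set stayed below the filter on low signals, so 5 of the 6 were tested, in the lines as in the marrow.

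PIM kinases have no known regulatory domain that must be switched on. They are active as made, and a cell controls them mainly through transcription and through the stability of the transcript and the protein. Cytokine signals that pass through JAK kinases and STAT factors induce them, NF-kB is a known inducer of Pim2 in lymphoid cells, and they favour survival and growth by phosphorylating proteins such as BAD, a pro-death member of the BCL-2 family, and the translation repressor 4E-BP1.

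Gene expression was measured on 20 Affymetrix Mouse 430 v2 arrays. Every line was a v-abl-transformed pre-B cell held in 3 uM STI571 for 48 hours, so that an agent blocking the ABL kinase was present in the controls too. STI571 (imatinib) is known to arrest such cells and to switch on RAG, the enzyme that makes DNA breaks at antigen receptor loci. RAG-2-deficient lines (n = 3), which cannot cut, were the controls named by the study. Wild type lines (n = 3) can cut and repair, and Artemis-deficient lines (n = 3) cut but cannot open the hairpins left at the coding ends. Artemis- and ATM-deficient lines (n = 2, each on 2 arrays that were averaged) also lack the kinase that signals breaks. The last group, Artemis-deficient lines expressing dominant negative IkB (n = 3, IkB-DN lines below), carries an inhibitor of NF-kB. The bone marrow set held samples labelled as pre-B cells from mice with an IgH transgene. The mice were RAG-1-deficient as controls (n = 2) or lacked Artemis (n = 2), and their ages are not given in the labels. The comparisons ask how PIM transcripts differ with RAG breaks, with their repair, without ATM and with blocked NF-kB.

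Some labels limit these groups as models. The titles of the RAG-2-deficient lines carry the letters Bcl, which the labels do not explain, and that of wild type replicate 3 carries the letters ATM. On 1 of its 2 probe sets Atm had log2 levels of 5.44 to 5.48 in the ATM-deficient lines and of 6.42 to 7.65 in the other 12 line samples, with 7.41 to 7.46 in wild type. The other target genes did not set the controls apart in this way. Rag2 stood at 4.69 to 8.38 in the RAG-2-deficient lines and at 7.48 to 8.28 in wild type, and Rag1 at 12.39 to 12.71 in the RAG-1-deficient marrow, above the 10.28 to 10.82 of the Artemis-deficient marrow. The labels do not say which parts of these genes are deleted, so these levels neither bear out nor contradict the genotypes. Correlations across probe sets were 0.976 to 0.983 between the IkB-DN samples, 0.902 to 0.947 within the other groups, and 0.982 and 0.984 between technical arrays. No label says whether the IkB-DN samples are separate clones. If they are not, p-values that use them are too small, and Pim2 results are therefore given below also with these samples averaged to 1. The B lineage markers (9 of 11 on the array) were above the array median in at least 1 sample of every line group, with a summed signal of 19774 to 33548, while dendritic markers summed to between 11 and 44.9, those of neutrophils and monocytes to 126 to 909, and the plasma cell list to 1755 to 6822.

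The promoter windows of the members came from RefSeq (GRCm38.p6), as the 250 bases before and the 50 after each annotated start. Pim2 lies on the X chromosome, Pim1 on 17 and Pim3 on 15, all on the + strand. The Pim2 window is shown because Pim2 was the member whose level differed between line groups.

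Pim2 chrX:7878056-7878355: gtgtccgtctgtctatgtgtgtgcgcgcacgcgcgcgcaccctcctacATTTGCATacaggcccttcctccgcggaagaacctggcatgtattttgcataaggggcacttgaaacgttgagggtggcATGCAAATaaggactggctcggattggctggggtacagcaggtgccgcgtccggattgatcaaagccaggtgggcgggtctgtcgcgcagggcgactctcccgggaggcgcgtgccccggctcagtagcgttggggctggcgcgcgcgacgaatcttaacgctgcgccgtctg

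The capitals mark the octamer ATGCAAAT, the site read by OCT factors in many B lineage promoters, once on each strand (ATTTGCAT is its reverse complement). The matches begin 202 and 123 bases before the start. The octamer was searched for after this window had been read. Of all 32851 windows 1.74% held it and 0.107% held 2 or more. No match stood in the Pim3 window (chr15:88861944-88862243) or in those of Pim1 (chr17:29490535-29490834 and chr17:29492835-29493134). The STAT motif TTCNNNGAA and the kappa B consensus, each searched on both strands, were found in 8.30% and 4.51% of all windows and in none of the 4 windows of the members. These are letter matches in a short window and not measured sites. The GC content was 62.7% in the Pim2 window, 69.0% in that of Pim3, and 81.3% and 49.0% in those of Pim1.

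Pim2 transcripts were highest in Artemis-deficient lines, above those of lines that also lacked ATM or had blocked NF-kB. Pim2 encodes the family member best known for its role in lymphoid cells. Its single probe set (1417216_at) gave signals of 643, 1005 and 1568 in the Artemis-deficient lines. The RAG-2-deficient lines stood at 318, 97.5 and 94.0. All Artemis-deficient lines lay above all of these controls. How many of all probe sets separate groups in this way was not counted, here or below. For groups that do not differ, separation in either direction has a probability of 0.10 with 3 against 3 samples. With 3 against 2 samples it is 0.20, and with 2 against 2 it is 0.333. Replicate 1 of the controls was the highest of its group. Wild type lines gave 464, 620 and 214, which overlapped the RAG-2-deficient lines and stayed just below the lowest Artemis-deficient line. IkB-DN lines gave 120, 75.1 and 75.9. Of the Artemis- and ATM-deficient lines, the first read 106 on both of its arrays and the second 32 and 30.5. The technical arrays therefore differed far less than the 2 lines did.

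**Figure D1:**
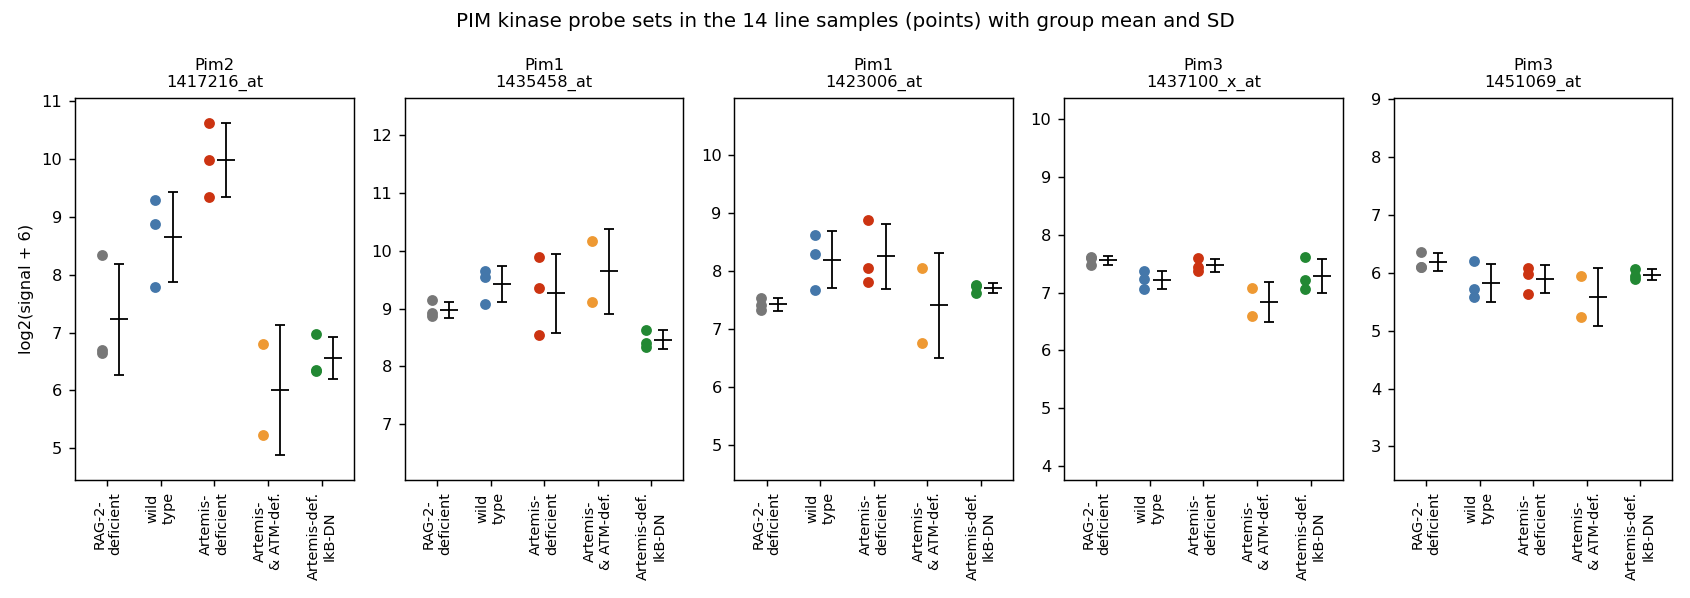
Log2(signal + 6) of the 5 tested PIM probe sets in the 14 line samples, 1 panel per probe set, with points for samples and bars for the group mean and SD. All panels span the same number of log2 units; in the Pim2 panel the 3 Artemis-deficient lines lie above every other line, and the Pim1 and Pim3 panels show smaller differences.

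On the log2(signal + 6) scale used for all line tests, the mean Pim2 level was 9.98 ± 0.64 (SD, n = 3) in Artemis-deficient, 8.65 ± 0.78 (SD, n = 3) in wild type lines, and 7.23 ± 0.96 (SD, n = 3) in the RAG-2-deficient controls. IkB-DN lines stood at 6.56 ± 0.36 (SD, n = 3) and the Artemis- and ATM-deficient lines at 6.01 ± 1.12 (SD, n = 2). None of the 4 steps between neighbours in this order passed the test. Artemis-deficient exceeded wild type lines by 1.33 ± 0.55 (SE, 95% interval 0.13 to 2.54, adjusted p = 0.352), and wild type exceeded RAG-2-deficient lines by 1.42 ± 0.55 (0.22 to 2.63, adjusted p = 0.311). Without wild type replicate 3, the line with the doubtful title, the latter was 1.86 (adjusted p = 0.214). The lower groups were closer together, with IkB-DN minus RAG-2-deficient lines at -0.67 ± 0.55 (adjusted p = 0.484) and Artemis- and ATM-deficient minus IkB-DN lines at -0.54 ± 0.62 (adjusted p = 0.655). The place of the controls among them rested on 1 line: without RAG-2-deficient replicate 1, IkB-DN minus RAG-2-deficient lines was -0.11. In these bulk samples fewer cells with the transcript and less transcript per cell cannot be told apart.

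Against the RAG-2-deficient controls, the Artemis-deficient difference of 2.76 (95% interval 1.55 to 3.96, adjusted p = 0.0374) amounted to 6.75 times on this scale. It ranked 47 from the top among 21880 probe sets with a value in this comparison. Of those, 1.15% were called at an adjusted p below 0.05 in either direction. This call was not stable. It held in 14 of 23 alternative settings, with differences of 2.44 to 3.31 and adjusted p from 0.0169 to 0.126. It was lost without RAG-2-deficient replicate 2 or 3, Artemis-deficient replicate 2 or 3, or any 1 of the IkB-DN samples, with those samples averaged (adjusted p = 0.107), and in a fit of the 2 groups alone (adjusted p = 0.126).

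The direct comparisons between Artemis-deficient groups gave larger differences. Pim2 was 3.97 ± 0.62 higher in Artemis-deficient than in Artemis- and ATM-deficient lines (95% interval 2.62 to 5.32, adjusted p = 0.0236), or 15.6 times, and ranked 16 from the top. In that comparison 0.283% of 21881 probe sets were called. It was 3.42 ± 0.55 higher than in IkB-DN lines (2.22 to 4.63, adjusted p = 0.0112), or 10.7 times, at rank 27, where 2.05% of 21849 were called. No sample of either lower group reached the lowest Artemis-deficient line. The call against the ATM-deficient lines held in 18 of 23 settings (3.17 to 4.76, adjusted p from 0.00418 to 0.187) and was lost without Artemis-deficient replicate 2 or 3, without Artemis- and ATM-deficient replicate 2, in a fit of these groups alone, and with the IkB-DN samples averaged (adjusted p = 0.0982). The call against the IkB-DN lines held in 20 of 23 settings (3.10 to 3.74). It was lost without IkB-DN replicate 2 or 3, and with the IkB-DN samples averaged to 1 the adjusted p was 0.509. Against RAG-2-deficient lines, neither the Artemis- and ATM-deficient lines (-1.21 ± 0.62, adjusted p = 0.486) nor the IkB-DN lines passed the test. The former difference was -0.65 without RAG-2-deficient replicate 1, -2.01 without Artemis- and ATM-deficient replicate 1 and -0.42 without replicate 2 of that group. These comparisons share their Artemis-deficient or RAG-2-deficient samples and are not independent of each other.

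**Figure D2:**
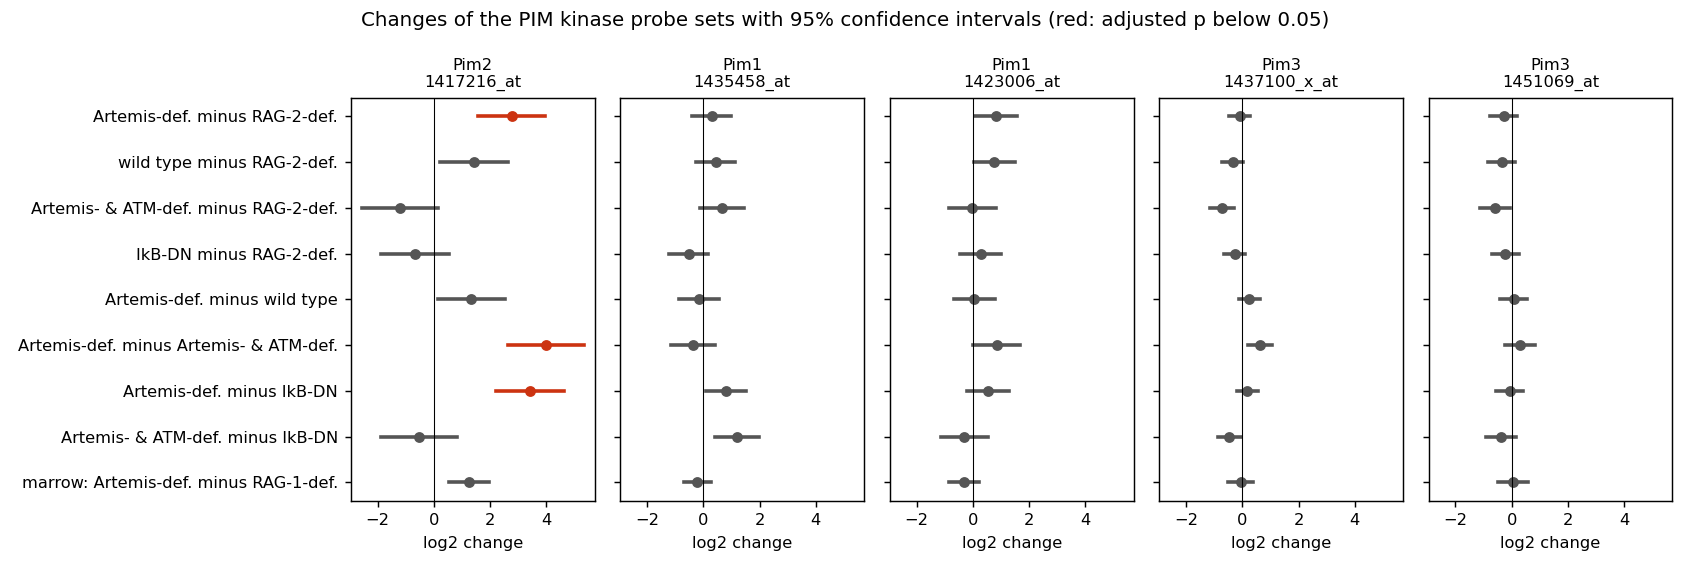
Log2 change (horizontal axis) with its 95% confidence interval for the 5 tested PIM probe sets in 9 comparisons (rows); red marks an adjusted p below 0.05. The red points are the 3 Pim2 comparisons of Artemis-deficient lines with RAG-2-deficient lines (2.76), IkB-DN lines (3.42) and Artemis- and ATM-deficient lines (3.97).

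Since Pim2 is X-linked, its level was set beside Xist, the transcript made from an inactive X chromosome. Xist stood at log2 levels of 11.41 to 12.09 in the wild type lines, the Artemis- and ATM-deficient lines and Artemis-deficient replicate 1, and at 4.09 to 5.64 in the other 8 lines. Xist state was thus tied to the group in all but the Artemis-deficient lines, and its part in the Pim2 levels was not tested. Among the Xist-low lines, Pim2 was 9.98 and 10.62 in the Artemis-deficient lines, 6.64 to 8.34 in the RAG-2-deficient and 6.34 to 6.98 in the IkB-DN lines. Among the Xist-high lines it was 9.34 in the Artemis-deficient line, 7.78 to 9.29 in wild type and 5.22 to 6.81 in the Artemis- and ATM-deficient lines.

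Pim1, the founding member of the family, passed the test in no comparison on either probe set. The brighter probe set (1435458_at) gave signals of 653, 367 and 941 in Artemis-deficient lines and of 462, 559 and 480 in the RAG-2-deficient controls. The Artemis-deficient lines fell on both sides of the controls. Wild type lines gave 739, 797 and 532, and IkB-DN lines 391, 334 and 316, which with Artemis-deficient replicate 2 made the lowest 4 values. The Artemis- and ATM-deficient lines disagreed with each other: 1 read 1159 and 1132 on its arrays, the other 524 and 576. The difference between Artemis-deficient and RAG-2-deficient lines was 0.29 ± 0.32 (SE, 95% interval -0.41 to 0.98), an interval that excludes a change as large as that of Pim2. Between Artemis-deficient and IkB-DN lines it was 0.81 ± 0.32 (0.11 to 1.5, adjusted p = 0.20). The widest Pim1 difference, Artemis- and ATM-deficient minus IkB-DN lines, was 1.19 ± 0.36 (adjusted p = 0.0695, with 6.71% of 21833 probe sets called there). The adjusted p of this difference was 0.0392 in a fit of those groups alone.

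The other Pim1 probe set (1423006_at) ordered the groups differently. Its signals were 261, 219 and 470 in Artemis-deficient lines, 309, 388 and 197 in wild type, and 165, 181 and 154 in RAG-2-deficient lines. IkB-DN lines read 208, 191 and 210. Every Artemis-deficient, wild type and IkB-DN line lay above all of the RAG-2-deficient controls. For each pair of groups, separation in either direction has a probability of 0.10 if they do not differ. IkB-DN minus RAG-2-deficient lines was 0.28 ± 0.34 (adjusted p = 0.652). Artemis- and ATM-deficient lines read 267 and 250 on the arrays of the first line and 93.0 and 113 on those of the second. The difference from RAG-2-deficient lines was 0.83 ± 0.34 (adjusted p = 0.308) for Artemis-deficient and 0.77 ± 0.34 for wild type lines, neither called. The Artemis- and ATM-deficient mean was the highest of the 5 groups on 1435458_at, while on 1423006_at it was level with the controls at the bottom (-0.02 ± 0.38). Over the 14 line samples the correlation between these probe sets was 0.559, given as a description of samples that share groups and arrays. That of Pim2 was 0.767 with 1423006_at and 0.354 with 1435458_at.

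Pim3, the third family member, had a narrow range of group means and was called in no comparison. On its brighter probe set (1437100_x_at, whose suffix marks probes that may also match other transcripts) the signals were 188, 167 and 160 in Artemis-deficient lines, 191, 171 and 187 in RAG-2-deficient lines, and 127, 159 and 144 in wild type. Artemis-deficient and RAG-2-deficient lines overlapped, and the wild type lines lay below both. IkB-DN lines gave 190, 142 and 127. The Artemis- and ATM-deficient lines were lowest on average, with 122 and 137 on the arrays of 1 line and 90.5 and 90.2 on those of the other. Their difference from RAG-2-deficient lines was -0.73 ± 0.19 (SE, 95% interval -1.14 to -0.31, adjusted p = 0.118), and 0.695% of 21862 probe sets were called in that comparison. Artemis-deficient exceeded Artemis- and ATM-deficient lines by 0.63 ± 0.19 (0.22 to 1.05, adjusted p = 0.257), and differed from RAG-2-deficient lines by -0.09 ± 0.17 (-0.46 to 0.28). The dimmer probe set 1451069_at ranged from 29.4 to 76.0 over the line arrays, with a correlation of 0.737 with 1437100_x_at over the 14 samples. Its difference between Artemis- and ATM-deficient and RAG-2-deficient lines was -0.60 ± 0.24, again with the former lower and not called. The probe set 1438956_x_at read 2.02 to 8.19 in the lines, where array medians were 26.8 to 27.7, and was not tested.

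Counted over the members, 1 of 5 tested probe sets was called, in the direction of higher, in each of the 3 comparisons named for Pim2, and 2, 3 and 2 of 5 had an unadjusted p below 0.05 there (in the order of the paragraphs on Pim2). With wild type against RAG-2-deficient lines none of 5 was called by limma (2 at an unadjusted p below 0.05), beside 0.832% of all probe sets. For Artemis- and ATM-deficient against RAG-2-deficient lines none was called either (2 unadjusted), beside 0.695%. IkB-DN against RAG-2-deficient lines had 0 of 5 called (0 unadjusted) beside 9.96% of all, the largest share of any comparison run. Artemis-deficient against wild type lines had 0 of 5 (1 unadjusted) beside 0.503%, and Artemis- and ATM-deficient against IkB-DN lines 0 of 5 (2 unadjusted) beside 6.71%. With 5 probe sets, a single call is a statement about Pim2 and not about the family.

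Whether Pim2 moved apart from its relatives was examined within samples, as the difference between the changes of 2 members. The change of Pim2 between RAG-2-deficient and Artemis-deficient lines exceeded that of Pim1 by 2.47 and that of Pim3 by 2.85 (log2). Against IkB-DN lines the excess was 2.62 and 3.25, and against Artemis- and ATM-deficient lines 4.35 and 3.33. For each of these the groups did not overlap, yet exact two-sided permutation tests cannot go below p = 0.10 with 3 against 3 samples or 0.20 with 3 against 2. Each test stood at that smallest value, and over the family of 15 such tests the adjusted p was 0.300 and 0.375. Pim1 and Pim3 differed less from each other, by 0.38 against RAG-2-deficient lines (exact permutation p = 0.600), 0.63 against IkB-DN lines (exact permutation p = 0.300) and -1.01 against Artemis- and ATM-deficient lines. The last of these was 0.22 with the other Pim1 probe set.

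Some genes of the NF-kB pathway rose in the same 3 comparisons as Pim2, and the counts follow. The list was composed with earlier results of these data known, so its direction is no independent evidence. Of 16 tested members, 5 rose and none fell in Artemis-deficient against RAG-2-deficient lines, beside 1.11% of 9873 genes called, with a median change of 0.68 against -0.00 over all genes. Nfkbie, the gene of the inhibitor IkB epsilon, rose by 2.04 ± 0.17 (SE, adjusted p = 0.000115). Tnfaip3, which encodes the A20 brake on this pathway, rose by 1.67 ± 0.25 (adjusted p = 0.00762), and the subunit gene Relb by 1.10 ± 0.18 (adjusted p = 0.0133). Against Artemis- and ATM-deficient lines 2 of 16 rose, Nfkbie (2.15 ± 0.19) and Relb (2.04 ± 0.20), beside 0.334% of 9871 genes. Against IkB-DN lines 5 of 16 rose, beside 2.40% of 9855 genes. Relb (2.55 ± 0.18) and Nfkbie (2.22 ± 0.17) had the largest changes of the called genes there. They were followed by Nfkbia (1.17 ± 0.18), the gene of IkB alpha, and Birc3 (1.14 ± 0.20), which encodes the inhibitor of apoptosis cIAP2. Bcl3 of the same list changed more, by 2.76 ± 0.77, but was not called (adjusted p = 0.112). Its changes against RAG-2-deficient (2.24 ± 0.97) and Artemis- and ATM-deficient lines (2.71 ± 0.77) were not called either. With the IkB-DN samples averaged to 1, a setting applied to the lists after their values were seen, 2 of 16 were called in each of these 3 comparisons, namely Nfkbie with Tnfaip3 against RAG-2-deficient lines and Nfkbie with Relb in the other pair. The change of Pim2 was larger than that of any of these genes in the 3 line comparisons, with a wider error. In IkB-DN against RAG-2-deficient lines, 2 of 16 were called higher and 2 lower, beside 9.96% of 21826 probe sets. Tnfaip3 (1.03 ± 0.25) and Icam1 (0.80 ± 0.14) were higher, and Relb (-1.45 ± 0.18) and Nfkbib (-0.60 ± 0.15) lower. None was called there with the IkB-DN samples averaged (lowest adjusted p = 0.106). Tnfaip3 (0.64 ± 0.25) and Icam1 (-0.06 ± 0.14) were not called in Artemis-deficient against IkB-DN lines.

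**Figure D3:**
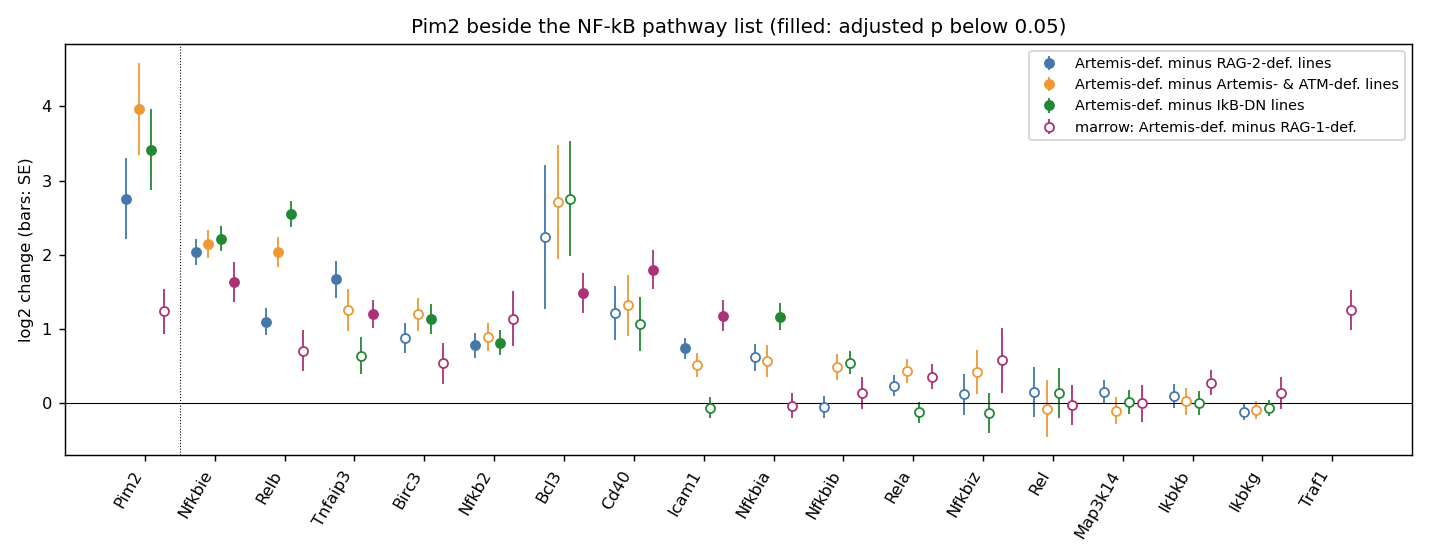
Log2 change with its SE (bars) of Pim2 and of the NF-kB pathway list in 3 line comparisons and in the marrow; filled points have an adjusted p below 0.05. Nfkbie is filled in all 4 comparisons (2.04, 2.15, 2.22 and 1.64), Pim2 in the 3 line comparisons only, and Rel, Map3k14, Ikbkb and Ikbkg near the right lie close to 0. Traf1 was tested in the marrow only.

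Few genes of the upstream cytokine arm were called at the transcript level, where few of all genes were called too. The list held 15 tested regulators of PIM kinases (cytokine receptor, JAK, STAT and stability genes). None was called by limma in these 3 line comparisons, and 1, 1 and 2 had an unadjusted p below 0.05. Of all genes, 1.11%, 0.334% and 2.40% were called, in the order used for the NF-kB list. With shares this low, the absence of calls among 15 genes does not set the regulators apart from other genes. Il7r, the IL-7 receptor chain of pre-B cells, changed by 0.01 ± 0.10 and Stat5a by -0.01 ± 0.16 between RAG-2-deficient and Artemis-deficient lines, values that do not speak to the activity of either protein. Among 10 STAT5 target genes, Socs2, a feedback inhibitor of cytokine signalling, fell in Artemis-deficient lines against RAG-2-deficient (-0.78 ± 0.15, adjusted p = 0.0290) and Artemis- and ATM-deficient lines (-0.94 ± 0.17, adjusted p = 0.0395). No other target was called there, and none was called against IkB-DN lines (4 at an unadjusted p below 0.05). These counts stand beside the same shares of all genes. With the IkB-DN samples averaged, Socs2 was not called in either comparison. In Artemis- and ATM-deficient against IkB-DN lines, where the widest Pim1 difference stood, 4 of 10 STAT5 targets were called higher and 1 lower, beside 7.14% of 9844 genes called. None of the 10 was called with the IkB-DN samples averaged, where the lowest adjusted p was 0.163. Socs1 (1.88 ± 0.47), Ccnd3 (1.38 ± 0.38) and Socs2 (1.29 ± 0.17) led these, and Bcl6, a transcriptional repressor, was lower (-1.01 ± 0.27).

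Downstream, 3 of 23 tested substrate genes rose in Artemis-deficient against RAG-2-deficient lines, beside 1.11% of all genes. They were Map3k8 (1.58 ± 0.31, adjusted p = 0.0362), a kinase that acts upstream of MAP kinases and NF-kB, the receptor gene Notch1 (1.30 ± 0.26, adjusted p = 0.0362), and the chemokine receptor gene Cxcr4 (0.89 ± 0.19, adjusted p = 0.0490). None of these calls held with the IkB-DN samples averaged (lowest adjusted p = 0.0936). Notch1 was also called in wild type against RAG-2-deficient lines (1.38 ± 0.26, adjusted p = 0.0345), a call likewise lost with those samples averaged. Its difference between Artemis-deficient and wild type lines was -0.08 ± 0.26. Map3k8 (0.80 ± 0.31) and Cxcr4 (0.40 ± 0.19) were not called in wild type against RAG-2-deficient lines. None of the 23 was called against Artemis- and ATM-deficient lines (4 at an unadjusted p below 0.05, beside 0.334% of all genes) or against IkB-DN lines (3 unadjusted, beside 2.40%). Bad, the classical substrate gene in survival signalling, stood at -0.04 against RAG-2-deficient lines. Of 9 tested genes of other survival kinases (AKT, SGK, PI3K and mTOR genes), none was called by limma in the 3 comparisons, with 2, 1 and 3 at an unadjusted p below 0.05, beside the same shares of all genes. Substrates are regulated by phosphorylation, which arrays do not measure.

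The genes whose levels were most like those of each member were ranked by Pearson correlation over the 14 line samples, among 9436 other genes. For Pim2 they were Prkcd (0.936), Birc3 (0.897), Coq8a (0.877), Cyba (0.876) and Zmiz2 (0.872, the same to 3 digits as the next gene). Prkcd encodes protein kinase C delta and Cyba a subunit of the phagocyte NADPH oxidase. Mean levels of Prkcd were 9.69 in Artemis-deficient, 9.50 in wild type, 9.09 in RAG-2-deficient, 8.67 in IkB-DN and 8.39 in Artemis- and ATM-deficient lines, the same order as for Pim2. The genes most like Pim1 (1435458_at) were others: Psmb2 (0.916) and Psma4 (0.877), which encode core subunits of the proteasome, then Ets2 (0.857), Psmd4 (0.831) and Actr3 (0.827). For Pim3 (1437100_x_at) they were Cerk (0.848), Otulin (0.825), Pomk (0.807), Ogfod1 (0.795) and Slc38a6 (0.787). The correlations describe samples that share groups, so genes that differ between groups correlate. By rank correlation, 3 of the 5 genes named for Pim2, 2 of those for Pim1 and 0 of those for Pim3 stayed among the top 5.

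**Figure D4:**
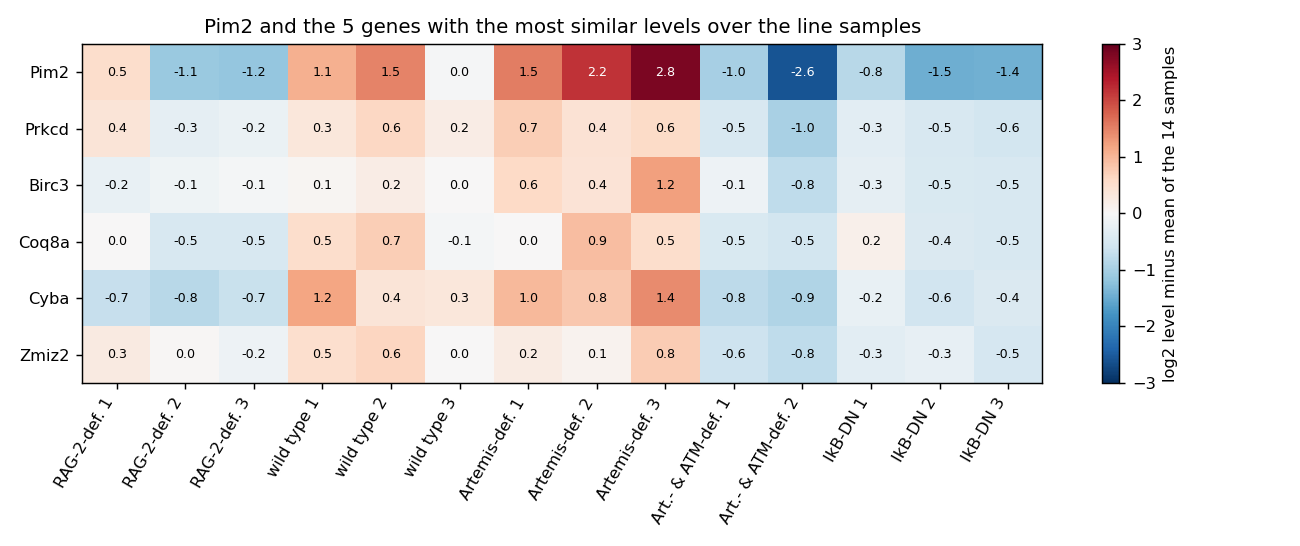
Log2 level of Pim2 and of the 5 genes most like it in each of the 14 line samples, minus the mean of the gene over these samples (colour and printed value). All 6 rows are below their mean in both Artemis- and ATM-deficient lines, and Pim2 spans the widest range.

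The bone marrow samples labelled as pre-B cells were analysed apart from the lines with log2(signal + 11). In them Pim2 was again higher with Artemis deficiency but missed the threshold. Its signals were 1152 and 998 in the Artemis-deficient and 316 and 633 in the RAG-1-deficient samples. Both Artemis-deficient samples lay above both controls, and the controls differed from each other more than the Artemis-deficient samples did. With 2 against 2 samples, separation in either direction has a probability of 0.333 if the groups do not differ. Mean levels were 10.08 ± 0.14 (SD, n = 2) and 8.84 ± 0.69 (SD, n = 2), a difference of 1.24 ± 0.30 (SE, 95% interval 0.53 to 1.95, adjusted p = 0.0862). In this comparison 2.56% of 19514 probe sets were called, and 0 of the 5 PIM probe sets (1 at an unadjusted p below 0.05). Without RAG-1-deficient replicate 1 the difference was 0.75, and without replicate 2 of that group it was 1.73. It was called in 1 of 9 alternative settings, without Artemis-deficient replicate 2 (adjusted p = 0.0384).

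Pim1 and Pim3 showed no such difference in the marrow. Pim1 read 526 and 521 in Artemis-deficient and 517 and 719 in RAG-1-deficient samples on 1435458_at, a difference of -0.22 ± 0.20 (95% interval -0.69 to 0.26). On 1423006_at the signals were 262 and 254 against 269 and 386 (-0.31 ± 0.22, interval -0.83 to 0.21), with both Artemis-deficient samples just below the controls. Pim3 read 237 and 289 against 277 and 267 on 1437100_x_at (-0.06 ± 0.20, -0.51 to 0.40), and 117 and 143 against 128 and 121 on 1451069_at (0.05 ± 0.23). These groups overlapped on both Pim3 probe sets. The change of Pim2 exceeded that of Pim1 by 1.45 and that of Pim3 by 1.29. An exact permutation test of 2 against 2 samples cannot go below p = 0.333, the value of both.

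**Figure D5:**
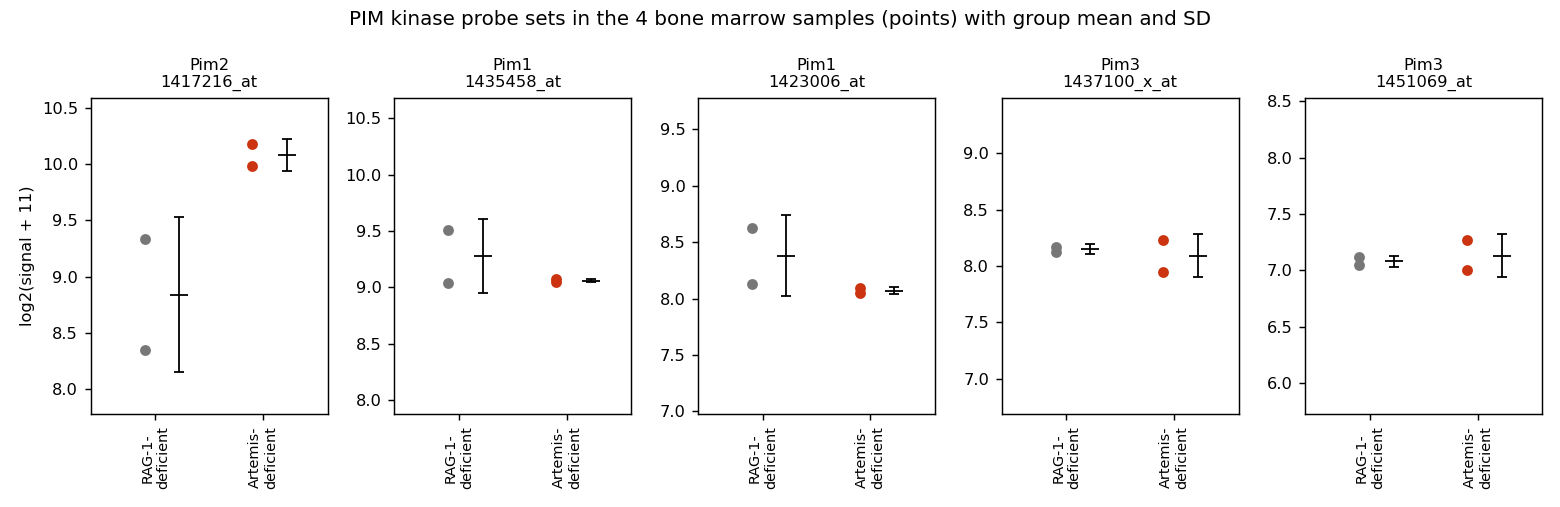
Log2(signal + 11) of the 5 tested PIM probe sets in the 4 marrow samples, with points for samples and bars for the group mean and SD; all panels span the same number of log2 units. Pim2 is higher in both Artemis-deficient samples (means 10.08 and 8.84), and the other panels differ by at most 0.31.

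Markers of other cells moved with the groups of the marrow set. The summed signal of the pre-B and B lineage list (9 of 11 markers on the array) was 11799 to 16687 in Artemis-deficient and 26205 to 30513 in RAG-1-deficient samples. For the neutrophil and monocyte list (9 of 10) it was 64448 to 68582 against 37545 to 52323, for T and NK cells (7 of 7) 6354 to 6572 against 2959 to 3973, and for dendritic cells (4 of 4) 2876 to 4044 against 744 to 1145. Other lists were lower in the Artemis-deficient samples. The erythroid list summed to 340 to 454 against 590 to 647. Mature B cell markers gave 720 to 756 against 948 to 1262, and plasma cell markers 5044 to 6073 against 6132 to 7019. In both groups the neutrophil and monocyte sum was above the B lineage sum, though sums over different probe sets do not give shares of cells. No marker of the neutrophil and monocyte list was below the array median in all samples of a group, and of the dendritic list only Zbtb46 was. Siglech, a marker of plasmacytoid dendritic cells, rose by 2.58 ± 0.38 (adjusted p = 0.0266), Flt3 by 1.48 ± 0.20 and Lyz2, the lysozyme gene of myeloid cells, by 1.05 ± 0.16. Vpreb1, part of the surrogate light chain, fell (-1.33 ± 0.23). Of the 9 B lineage markers 2 were called lower, and 1, Dntt, was higher without being called (1.09 ± 0.26, adjusted p = 0.0769). The part of these cells in the marrow Pim2 levels was not tested. In the lines, the T and NK list summed to 442 to 618 in IkB-DN lines and to at most 277 in any other line. Klrd1 was the 1 gene of this list tested in the lines, with a mean log2 level of 9.05 in IkB-DN lines. Cd3g, Cd8a and Thy1 were below the array median in all IkB-DN lines. The neutrophil and monocyte list (9 of 10 on the array) summed to 649 to 789 there, to 126 to 206 in RAG-2-deficient, 151 to 411 in wild type, 171 to 367 in Artemis-deficient and 248 to 909 in Artemis- and ATM-deficient lines, with S100a8, Mpo and Ngp below the array median in all IkB-DN lines. Lyz2 was also called in Artemis-deficient minus IkB-DN lines (-3.40 ± 0.44, adjusted p = 0.00492), where Pim2 was called. In IkB-DN minus RAG-2-deficient lines Lyz2 was called at 3.22 ± 0.44 (adjusted p = 0.00166), Itgam at 4.33 ± 0.76 (adjusted p = 0.00557) and Elane at 0.95 ± 0.25 (adjusted p = 0.0341). The part of these markers in the line results was not tested.

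Around Pim2 in the marrow, 5 of 17 tested NF-kB pathway genes rose and none fell, beside 2.65% of 9933 genes called. They included Cd40 (1.80 ± 0.26), a receptor that is also on the list of mature B cell markers, Nfkbie (1.64 ± 0.27), Bcl3 (1.49 ± 0.27), an atypical IkB protein, and Tnfaip3 (1.20 ± 0.19). Of 16 regulators of PIM kinases none was called by limma (3 at an unadjusted p below 0.05). Of 10 STAT5 targets 1 rose, the cyclin gene Ccnd2 (0.86 ± 0.15, adjusted p = 0.0384). Of 24 substrate genes Map3k8 rose (1.58 ± 0.31, adjusted p = 0.0474) and Eif4ebp1, the gene of 4E-BP1, fell (-1.09 ± 0.18, adjusted p = 0.0310). Sgk1 was the 1 gene called among 10 other survival kinases, and it fell (-0.86 ± 0.17, adjusted p = 0.0461). Map3k8 had a change of 1.58 in the marrow as in the Artemis-deficient lines against RAG-2-deficient controls. It was also higher in IkB-DN than in RAG-2-deficient lines (1.49 ± 0.31, adjusted p = 0.0125). Between Artemis-deficient and IkB-DN lines its difference was 0.08 ± 0.31. Neither line call of Map3k8 held with the IkB-DN samples averaged.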

How the data were processed

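RNA of 16 line arrays and 4 marrow arrays was hybridised to Affymetrix Mouse 430 v2 chips. The authors deposited 1 log10 signal per probe set and array; the base was inferred from the values. The summary of probes, the background step and the scaling are not given in the labels, and arrays have no read depth, so the number of arrays limits the precision. Values were returned to signals, taken to log2(signal + pseudocount), with pseudocounts of 6 in lines and 11 in marrow (25th percentiles). Empty cells (14.7%) stayed empty. Probe sets with at least 2 samples at or above the median of their own array were tested: 21921 in lines and 19520 in marrow. Technical arrays were averaged within a line.

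Tests used limma 3.58.1 under R 4.3.3 (lmFit, eBayes with an intensity trend; two-sided, Benjamini-Hochberg over all probe sets of a comparison, called below 0.05). The 14 line samples shared a fit (9 residual and 3.06 prior degrees of freedom), and the 4 marrow samples had their own (2 and 5.4). The procedure was tested on simulated data. Differences between members used exact permutation tests (scipy 1.17.1). Replicates are described as biological in the design text, with nothing on separate mice or transformations. The p-values set each group difference against the spread between these samples within groups, which would be too small if the samples are not independent.

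Of the probe sets, 34294 named 1 gene, 916 several and 8990 none. A gene is represented by its tested probe set of highest mean level. All member probe sets are named, with the 5 genes most like each member, up to 4 called genes per pathway list and comparison (largest change), and up to 2 values where none was called. Other genes named (Bad, Xist, Atm, Rag1, Rag2 and the cell type markers) and the octamer were chosen after their values or letters were seen. The members and lists were chosen with earlier results of these data known. Promoter windows came from RefSeq's GRCm38.p6 annotation and matched all 3 members by symbol. Alternatives were other pseudocounts, no filter, quantile normalization, no trend, only the groups compared, single technical arrays, arrays with the line as a block, IkB-DN samples averaged (for the lists, chosen after seeing the data), and each sample left out. Figures were drawn with matplotlib 3.10.9.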

Additional observations from a re-analysis of the deposited data

Results flagged for a closer look

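The differences of the Pim1 probe set 1423006_at had opposite signs in the lines and in the marrow. Every Artemis-deficient line lay above every RAG-2-deficient line, with a mean log2 difference of 0.83 ± 0.34, while both Artemis-deficient marrow samples lay below both RAG-1-deficient samples, with a difference of -0.31 ± 0.22. Neither difference was called, and the difference between these 2 effects was not tested. For groups that do not differ, separation in either direction has a probability of 0.10 in these lines and of 0.333 in the marrow. On the brighter Pim1 probe set, 1435458_at, the groups overlapped in both sets.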

How the results depend on the processing

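Pim2 stayed higher in Artemis-deficient lines than in RAG-2-deficient, Artemis- and ATM-deficient (double-deficient) and IkB-DN lines in all 23 alternatives of each comparison, and the calls did not. With only the groups compared, the differences were 2.76 (adjusted p = 0.126), 3.97 (0.187) and 3.42 (still called). With the IkB-DN samples averaged to 1 they were 2.76 (0.107), 3.97 (0.0982) and 3.42 (0.509), with fewer samples behind the shared spread. Leaving out 1 sample gave 2.44 to 3.31, 3.17 to 4.76 and 3.10 to 3.74, and 0.75 to 1.73 for Pim2 in the marrow. For Pim1 1435458_at, the fit of only the groups compared called IkB-DN below RAG-2-deficient lines (-0.52, adjusted p = 0.0354) and Artemis- and ATM-deficient above IkB-DN lines (1.19, 0.0392), as did all 16 arrays with the line as a block for the latter (1.19, 0.0394; 0.66 to 1.71 with 1 sample left out). Differences near 0 changed sign when 1 sample was left out. For Pim1 1435458_at these were Artemis-deficient against RAG-2-deficient (-0.03 to 0.65), Artemis- and ATM-deficient (-0.90 to 0.15) and wild type lines (-0.47 to 0.21), and the marrow (-0.45 to 0.02). For Pim1 1423006_at they were Artemis- and ATM-deficient against RAG-2-deficient (-0.66 to 0.62) and IkB-DN lines (-0.94 to 0.34), and Artemis-deficient against wild type lines (-0.26 to 0.28). For Pim3 1451069_at they were Artemis-deficient against Artemis- and ATM-deficient (-0.05 to 0.67), IkB-DN (-0.16 to 0.07) and wild type lines (-0.06 to 0.25), and the marrow (-0.08 to 0.18). The others were Pim2 in Artemis- and ATM-deficient against IkB-DN lines (-1.34 to 0.25) and Pim3 1437100_x_at in the marrow (-0.19 to 0.08). Pim1 minus Pim3 against Artemis- and ATM-deficient lines was 0.22 with the other Pim1 probe set, against -1.01.

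Counts of all called probe sets moved more. In the order Artemis-deficient, wild type, double-deficient and IkB-DN against RAG-2-deficient lines, then Artemis-deficient against Artemis- and ATM-deficient, IkB-DN and wild type lines, then Artemis- and ATM-deficient against IkB-DN lines, the counts were 252, 182, 152, 2173, 62, 448, 110 and 1466. With the IkB-DN samples averaged to 1 they were 83, 42, 47, 24, 25, 5, 11 and 4. With only the groups compared they were 103, 27, 79, 3184, 22, 832, 6 and 3275. With the line as a block, Artemis- and ATM-deficient lines differed from RAG-2-deficient lines in 243 and from Artemis-deficient lines in 106. Leaving out 1 sample gave 100 to 352, 74 to 319, 47 to 202, 858 to 2468, 30 to 85, 59 to 1089, 57 to 185 and 357 to 1742. In the marrow 499 were called, 14 with no intensity trend, and 0 (without RAG-1-deficient replicate 1) to 1248 with 1 sample left out. The cause of these changes was not tested. No paired analysis was possible because replicate numbers in the labels link no samples across groups.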
